A study of Mus musculus with 23 samples.

Results

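The subject is a set of 10 genes of glucocorticoid signalling, chosen by name from the 45706 genes of the table: the receptors Nr3c1 and Nr3c2, the activating enzyme Hsd11b1, and 7 genes known to respond to glucocorticoids, Fkbp5, Sgk1, Tsc22d3, Zbtb16, Errfi1, Cdkn1a and Pdk4. The libraries were made from hippocampal RNA of female mice, 12 with both copies of Ins2 (Ins2+/+, WT) and 11 with neither (Ins2-/-, KO). Ins2 is one of the insulin genes of the mouse, and the series title places the experiment in work on brain insulin, learning and memory. The labels state neither age, strain, time of tissue collection nor handling, no other allele or treatment, and not how the deletion was made. They also do not say that each library is a separate animal, so p-values measure the spread between these libraries.

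Corticosterone, the main glucocorticoid of mice, enters brain cells and binds a pair of related receptors that act as transcription factors. The mineralocorticoid receptor, encoded by Nr3c2, binds it tightly and is abundant in hippocampal neurons. The glucocorticoid receptor, encoded by Nr3c1, binds it less tightly and is occupied mostly when the hormone is high, in the active part of the day or during stress. The enzyme encoded by Hsd11b1 regenerates the active hormone inside cells. The hormone-bound receptors recognise a palindromic DNA element, and the genes they switch on include a feedback protein, kinases, transcription factors and metabolic enzymes. Hormone levels were not measured in the files used here.

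Upstream windows are shown for 3 of the responsive genes, because the classical receptor element was found in a window of Sgk1 and in none of the windows of Fkbp5 or Cdkn1a, genes whose pairing with Sgk1 is described further on. Windows are the 250 bases before an annotated RefSeq start on GRCm38.p6, read 5′ to 3′ on the gene's strand, and 8 of the 10 genes matched, with 17 windows in all. Nr3c1 and Zbtb16 had no entry. Capitals mark the motif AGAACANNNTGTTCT or its arm AGAACA, searched on both strands, the arm being part of the full motif.
Sgk1, chr10:21993640-21993889, plus strand: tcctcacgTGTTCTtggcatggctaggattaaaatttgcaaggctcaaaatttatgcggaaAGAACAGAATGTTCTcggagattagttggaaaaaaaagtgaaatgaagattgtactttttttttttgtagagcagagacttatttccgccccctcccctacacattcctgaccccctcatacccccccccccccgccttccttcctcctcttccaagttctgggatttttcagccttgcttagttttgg
Fkbp5, chr17:28486150-28486399, minus strand: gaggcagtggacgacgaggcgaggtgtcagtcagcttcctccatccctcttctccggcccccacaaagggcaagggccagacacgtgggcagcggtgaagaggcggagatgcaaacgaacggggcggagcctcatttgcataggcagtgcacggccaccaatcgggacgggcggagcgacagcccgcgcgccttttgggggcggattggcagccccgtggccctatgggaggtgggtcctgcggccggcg
Cdkn1a, chr17:29093519-29093768, plus strand: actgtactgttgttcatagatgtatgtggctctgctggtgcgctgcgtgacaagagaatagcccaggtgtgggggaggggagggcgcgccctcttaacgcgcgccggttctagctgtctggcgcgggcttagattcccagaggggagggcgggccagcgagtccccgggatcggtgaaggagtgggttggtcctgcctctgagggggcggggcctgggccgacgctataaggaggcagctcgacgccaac
The full motif lies in the Sgk1 window at chr10:21993701-21993715, beginning 189 bases before an internal start of the gene, and reads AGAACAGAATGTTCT. It occurred in 1 of the 17 windows of the listed genes and in 3 of 32851 windows of all genes, 0.00913%. The looser form GNACANNNTGTNC was in 127 windows of all genes, 0.387%, and among the listed genes again in that Sgk1 window alone. The arm was in 4 of the 17 windows, of Sgk1 and Tsc22d3, against 16.1% of all windows. The 3 printed windows hold no exon base of their gene. A match is a description of the letters, and no match says only that they are not in these windows.

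Library totals ran from 13792274 to 22953261 estimated counts. Ins2 had 26 counts in 7 of the 12 WT libraries, 18 of them in WT library 17, and 0 in the KO libraries. KO library 8 stands apart. Its summed level of 11 hypothalamic genes was 1493 CPM (a count relative to its library's scaled total), against 0.883 to 8.24 CPM in the other 22 libraries. Its sum over 8 dentate gyrus genes was 94.7 CPM, against 356 to 743 CPM. Choroid plexus genes summed to between 3162 and 20199.5 CPM in 5 libraries (WT 14, WT 17, KO 2, KO 6 and KO 12) and to between 29.3 and 95.3 CPM in the other 17. Dentate gyrus, CA1 and CA2/CA3 genes were detected in the 22 libraries. Values are therefore given with and without KO library 8, and correlations leave it out.

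The WT and KO ranges of both receptor genes overlapped, and neither gene passed the test between genotypes. Nr3c1 (ENSMUSG00000024431, chromosome 18, 39410545 to 39519421, minus strand, GRCm38) ran from 82.1 to 110.3 CPM in WT, with a median of 101, and from 85.7 to 120.4 CPM in KO, with a median of 99.0. Its SD of log2 CPM was the smallest of the 10, and the groups overlapped between 85.7 and 110.3 CPM. Its log2 fold change, KO against WT, was 0.0031 (SE 0.0555, 95% interval -0.11 to 0.12, edgeR adjusted p = 0.989), and -0.0054 without KO library 8.

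Nr3c2 (ENSMUSG00000031618, chromosome 8, 76899442 to 77245012, plus strand) ran from 153 to 251 CPM in WT, with a median of 202. In KO it ran from 27.5 to 245 CPM, with a median of 170. The lowest value belongs to KO library 8, at 14% of the median of the other libraries. Without it the KO libraries began at 158 CPM, inside the WT range. KO against WT, the log2 fold change was -0.24 (SE 0.192, interval -0.64 to 0.15, edgeR adjusted p = 0.793) with KO library 8 and -0.12 (SE 0.085, interval -0.30 to 0.05, edgeR adjusted p = 0.967) without it. Exons of Nr3c2 overlap Gm10649 on the opposite strand, which held 1529 counts against 72763, so the value is uncertain to that extent, because the use of strand in counting is not given in the sources used here.

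The balance of the receptors was compared as the log2 ratio of Nr3c2 to Nr3c1 per exon length. It was 1.23 ± 0.233 in WT (SD, n = 12) and 0.85 ± 0.883 in KO (SD, n = 11), a difference of -0.38 (two-sided permutation test, p = 0.102). Without KO library 8 the KO mean was 1.11 ± 0.23 (n = 10) and the difference -0.12 (permutation p = 0.245). The difference passed p = 0.05 when KO library 22 was left out (-0.45, permutation p = 0.0241) or WT library 15 was left out (-0.42, permutation p = 0.0466), with KO library 8 still in. In KO library 8 Nr3c1 was 108 CPM, inside the range of the others, and Nr3c2 was the lowest of 23.

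Hsd11b1 (ENSMUSG00000016194, chromosome 1, 193221634 to 193264075, minus strand) ran from 16.4 to 28.1 CPM in WT, with a median of 22.9, and from 8.3 to 28.6 CPM in KO, with a median of 21.2. The lowest value was again KO library 8, and the other KO libraries, from 19.6 CPM, lay within or beside the WT range. Its log2 fold change was -0.12 (SE 0.125, edgeR adjusted p = 0.827) and -0.0291 without KO library 8.

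None of the 7 responsive genes passed the test between genotypes, and several varied widely within each genotype. Fkbp5 (ENSMUSG00000024222, chromosome 17, 28399094 to 28517527, minus strand) encodes a co-chaperone that lowers the receptor's affinity for hormone. It ran from 46.2 to 85.3 CPM in WT (median 68.8) and from 22.1 to 83.5 CPM in KO (median 67.6). KO library 8 was lowest, and WT library 17, KO library 16 and WT library 15 were the next, all under 50 CPM. The fitted log2 fold change, KO against WT, was -0.14 (SE 0.144, edgeR adjusted p = 0.819) and -0.0496 without KO library 8.

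Sgk1 (ENSMUSG00000019970, chromosome 10, 21882184 to 21999903, plus strand), a serine/threonine kinase that regulates ion channels and transporters, ran from 83.0 to 212 CPM in WT (median 145) and from 72.6 to 236 CPM in KO (median 134). KO library 12 and WT libraries 17 and 24 were highest, each above 200 CPM. The log2 fold change was -0.13 (SE 0.159, edgeR adjusted p = 0.853) and -0.0603 without KO library 8.

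Tsc22d3 (ENSMUSG00000031431, chromosome X, 140539528 to 140600659, minus strand), whose product is the glucocorticoid-induced leucine zipper, ran from 61.7 to 112 CPM in WT (median 80.6) and from 55.7 to 121 CPM in KO (median 85.6). High and low libraries occurred in both genotypes, and KO library 8 lay among them at 85.9 CPM. KO against WT, the log2 fold change was 0.12 (SE 0.12, edgeR adjusted p = 0.824), the largest positive one among the 10 genes, and 0.12 without KO library 8 (SE 0.125, edgeR adjusted p = 0.967).

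Zbtb16 (ENSMUSG00000066687, chromosome 9, 48654297 to 48836222, minus strand), a zinc-finger transcription factor, ran from 42.8 to 92.1 CPM in WT (median 69.8) and from 10.8 to 84.1 CPM in KO (median 70.6). KO library 8 was at 15.2% of the median of the others. The other KO libraries, from 55.7 CPM, spanned less than the WT libraries did. Its log2 fold change was -0.0893 (SE 0.204, edgeR adjusted p = 0.921) and turned to 0.0311 without KO library 8.

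Errfi1 (ENSMUSG00000028967, chromosome 4, 150853919 to 150868892, plus strand), an inhibitor of the EGF receptor, ran from 42.7 to 61.6 CPM in WT (median 52.9) and from 33.3 to 59.0 CPM in KO (median 55.0). It varied little outside KO library 8, where it was lowest. The fitted log2 fold change, KO against WT, was -0.0412 (SE 0.0777, edgeR adjusted p = 0.903) and turned to 0.0124 without KO library 8.

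Cdkn1a (ENSMUSG00000023067, chromosome 17, 29090976 to 29100727, plus strand), a cell-cycle inhibitor, was the least abundant of the 10. It ran from 3.44 to 13.2 CPM in WT (median 7.1) and from 4.39 to 11.3 CPM in KO (median 6.49). WT libraries 24, 11 and 14 and KO library 12 were highest, and WT libraries 5 and 1 and KO library 18 lowest. The log2 fold change was -0.14 (SE 0.21, edgeR adjusted p = 0.882) and -0.17 without KO library 8. An annotated transcript on the opposite strand, absent from the table, overlaps its exons.

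Pdk4 (ENSMUSG00000019577, chromosome 6, 5483351 to 5496309, minus strand), a kinase that switches off pyruvate dehydrogenase and so spares glucose, ran from 9.4 to 25.2 CPM in WT (median 16.4) and from 10.9 to 22.8 CPM in KO (median 18.1). WT library 14, KO library 12 and WT libraries 17 and 24 were highest. KO against WT, the log2 fold change was 0.00865 (SE 0.158, edgeR adjusted p = 0.989) and 0.0512 without KO library 8.

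**Figure D1:**
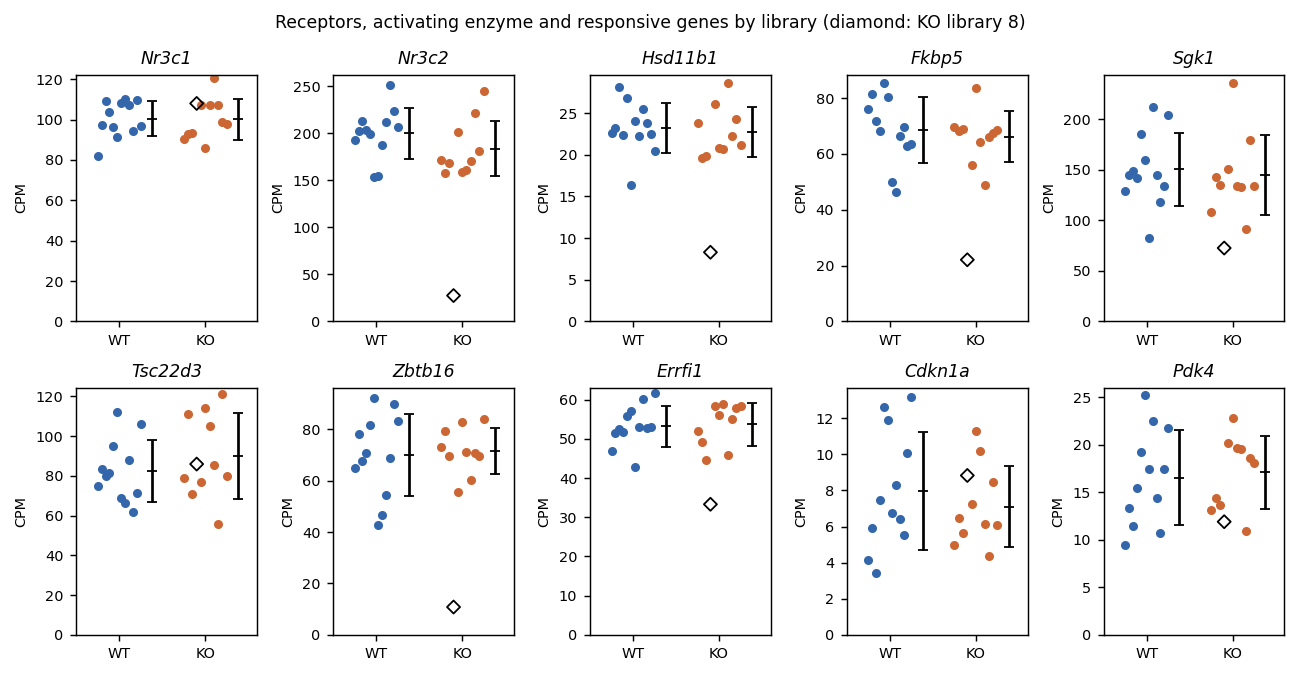
Level of each listed gene in CPM (y axis, from 0) in the 12 WT and 11 KO libraries; each point is a library, the diamond is KO library 8, and the bar is the mean ± SD, for KO without library 8. The diamond is the lowest point for Nr3c2, Hsd11b1, Fkbp5, Sgk1, Zbtb16 and Errfi1, and the remaining WT and KO points overlap in each panel.

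Across the set, 0 of the 10 genes were called between KO and WT at an adjusted p below 0.05, with a background of 2 of 15828 tested genes, 0.0126%. At an unadjusted p below 0.05 there were also 0 of 10 with edgeR, with DESeq2 and with limma voom, against 5.74%, 6.17% and 17.5% of all tested genes. Without KO library 8 it was again 0 of 10 with edgeR, against 4.11% of all tested genes. Over the settings tried, the smallest adjusted p of a listed gene was 0.304, for Nr3c2 with limma voom. The median log2 fold change of the 10 was -0.10, with 7 lower and 3 higher in KO, against 0.003 over all tested genes. Without KO library 8 that median was -0.017, with 6 lower and 4 higher. The intervals bound the size that could have been missed: without KO library 8 they reached from -0.25 to 0.15 for Fkbp5, from -0.37 to 0.25 for Sgk1 and from -0.615 to 0.284 for Cdkn1a.

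**Figure D2:**
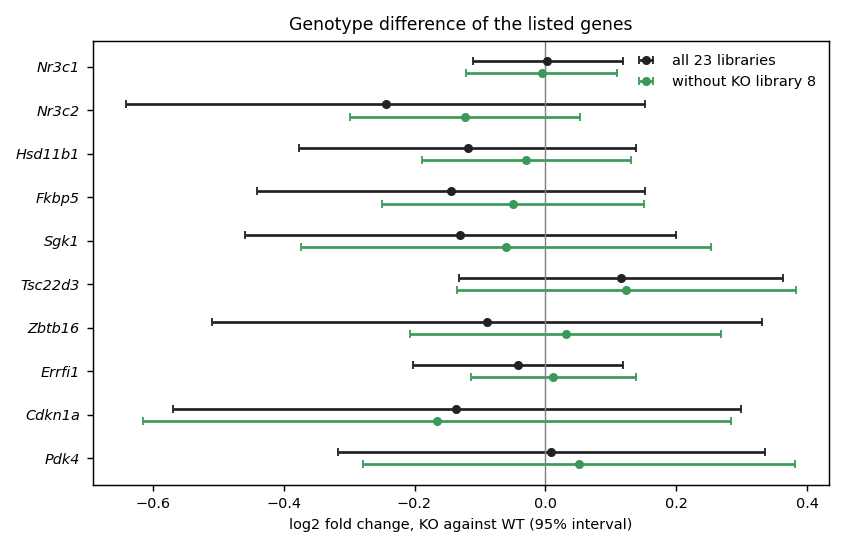
Log2 fold change of each listed gene, KO against WT (x axis), from edgeR, with its 95% interval, in all 23 libraries (black) and without KO library 8 (green). Every interval spans 0, and the intervals of Nr3c2 and Zbtb16 narrowed most when KO library 8 was left out.

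KO library 8 was low in some listed genes and ordinary in others. Nr3c2, Zbtb16, Fkbp5, Hsd11b1, Sgk1 and Errfi1 had their lowest value of 23 libraries there, at 14%, 15.2%, 32.5%, 36.8%, 51.0% and 62.8% of the median of the other libraries. Nr3c1, Tsc22d3, Cdkn1a and Pdk4 lay inside the range of the others, at 109%, 107%, 133% and 68.2% of their medians. In the same library 11 of 11 hypothalamic genes were above, and 8 of 8 dentate gyrus genes and 4 of 5 CA1 genes below, every other library. Of 30 other responsive genes, 14 were below every other library and 0 above. Over all tested genes, KO library 8 was below every other library for 26.2% and above for 19.5%, beside which the 6 of 10 listed genes are to be read. In bulk tissue, fewer cells of a type and less RNA per cell cannot be told apart, and the part of tissue composition in these values was not tested.

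Per exon length, levels in WT differed between genes, with overlaps between most neighbours. Nr3c2 (30.9 ± 4.17 CPM per kilobase, SD, n = 12) and Sgk1 (30.7 ± 7.4) were highest and did not differ beyond their spread. Tsc22d3 followed at 19 ± 3.6, and its libraries, from 14.2 to 25.8, overlapped those of Sgk1, from 16.9 to 43.3. Errfi1 (14.8 ± 1.46), Zbtb16 (13.3 ± 3.03) and Nr3c1 (13.1 ± 1.15) came next. Their libraries overlapped, from 11.9 to 17.2, from 8.1 to 17.4 and from 10.7 to 14.4, though the Errfi1 mean lay above every Nr3c1 library. Fkbp5 was at 7.23 ± 1.25, Hsd11b1 at 5.45 ± 0.709 and Pdk4 at 4.7 ± 1.42, again with overlapping neighbours, and Cdkn1a was lowest at 2.25 ± 0.925 CPM per kilobase.

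How much each gene varied between libraries was set against genes of similar level, over the 22 libraries without KO library 8. The SD of log2 CPM exceeded that of 98.9% of such genes for Sgk1, 97.2% for Tsc22d3, 95.4% for Zbtb16, 93.7% for Pdk4, 91.1% for Fkbp5 and 90.5% for Cdkn1a. It exceeded 88.9% for Nr3c2, 69.5% for Hsd11b1, 63.6% for Errfi1 and 57.7% for Nr3c1. The highest library was 3.84 times the lowest for Cdkn1a, 2.85 times for Sgk1 and 2.68 times for Pdk4, against 1.47 times for Nr3c1 and 1.44 times for Errfi1. Counting error alone would give 24% of the SD of Cdkn1a, and 7.98% of that of Sgk1.

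The study's design gives no stress or hormone group, so covariation between libraries was measured over 22 libraries, for the 45 pairs of listed genes, as Pearson r and Spearman rho of log2 CPM with two-sided permutation tests and Benjamini-Hochberg adjustment over the pairs. The adjusted p was below 0.05 for 7 of 45 pairs, 6 of them positive, and the unadjusted p for 15. The weakest of the 7 had an absolute r of 0.573, which 6.51% of all pairs of tested genes reached or passed, against 15.6% of the 45 pairs. Of the 7 pairs, 5 lay among Sgk1, Tsc22d3, Cdkn1a and Pdk4, and the others were Fkbp5 with Zbtb16 and, with a negative r, Nr3c1 with Fkbp5. The 4 called pairs that hold Sgk1 or Tsc22d3 were all lost without any 1 of WT library 20, WT library 24, KO library 12 or KO library 18 (permutation test, adjusted p from 0.0504 to 0.0993). Whether these patterns follow the hormone state of the animals was not tested.

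The closest pair was Cdkn1a with Pdk4. WT library 24 held 13.2 and 21.8 CPM of them, WT library 14 held 11.9 and 25.2, and KO library 12 held 11.3 and 22.8, whereas WT library 1 held 4.12 and 9.4 and KO library 18 held 4.39 and 10.9. The same libraries were thus high or low for both genes in both genotypes. The correlation was r = 0.843 (permutation p = 1e-05, the smallest that the permutations can give, adjusted p = 0.00045) and rho = 0.85 (permutation p = 1e-05). It was 0.828 without the libraries farthest from the Cdkn1a median, WT libraries 24 and 5, 0.873 in WT alone, 0.842 in KO alone and 0.806 without the choroid plexus rich libraries. Among 15827 other tested genes, Pdk4 ranked 1 for likeness to Cdkn1a, and Cdkn1a ranked 1 for likeness to Pdk4.

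Sgk1 and Tsc22d3 joined that pair more loosely. KO library 12 (236 CPM of Sgk1 and 114 of Tsc22d3) and WT library 24 (204 and 106) were high for both, and KO library 18 (91.7 and 55.7) was low for both. WT library 17 broke the pattern, with 212 CPM of Sgk1 and 66.5 of Tsc22d3. For Sgk1 with Tsc22d3, r was 0.603 (permutation p = 0.0031, adjusted p = 0.0325) and rho 0.597 (permutation p = 0.00418), and r was 0.522 without WT library 15 and KO library 12. For Sgk1 with Cdkn1a, r was 0.597 (permutation p = 0.00361, adjusted p = 0.0325) and rho 0.631 (permutation p = 0.00245), and r was 0.633 without the same libraries.

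Tsc22d3 with Cdkn1a gave r = 0.588 (permutation p = 0.00435, adjusted p = 0.0326) and rho = 0.572 (permutation p = 0.00633), and r was 0.547 without KO libraries 21 and 18. Sgk1 with Pdk4 gave r = 0.573 (permutation p = 0.00528, adjusted p = 0.0339) and rho = 0.639 (permutation p = 0.00184), and r was 0.661 without WT library 15 and KO library 12. Tsc22d3 with Pdk4 missed the threshold at r = 0.546 (permutation p = 0.00918, adjusted p = 0.0516; rho = 0.503, permutation p = 0.018). For these 5 pairs r was 0.463 to 0.536 in WT alone and 0.641 to 0.844 in KO alone, and the difference between genotypes was not tested. The 4 called pairs among them were lost in WT alone (permutation test, adjusted p from 0.311 to 0.316), and Sgk1 with Tsc22d3 was also lost in KO alone (adjusted p = 0.0569). Without the 5 choroid plexus rich libraries the call was lost for Sgk1 with Pdk4 (r = 0.417, permutation test, adjusted p = 0.252), Sgk1 with Cdkn1a (0.517, adjusted p = 0.187) and Tsc22d3 with Cdkn1a (0.534, adjusted p = 0.174), while Sgk1 with Tsc22d3 was called (0.745, adjusted p = 0.0166). Sgk1 with Pdk4 was also lost when the choroid plexus score was regressed out (r = 0.503, permutation test, adjusted p = 0.0585).

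Fkbp5, the usual reporter of receptor activity, formed no called pair with this block. Its r was 0.218 with Sgk1 (permutation p = 0.33; rho = 0.167, permutation p = 0.457), 0.361 with Tsc22d3 (permutation p = 0.0983; rho = 0.3, permutation p = 0.174), 0.0687 with Cdkn1a (permutation p = 0.761; rho = -0.141, permutation p = 0.53) and -0.238 with Pdk4 (permutation p = 0.286; rho = -0.269, permutation p = 0.227). The value for Sgk1 depended on single libraries, running from 0.0338 to 0.481 when 1 library was left out. Without WT library 17 and KO library 16, r was 0.528 with Sgk1, 0.339 with Tsc22d3, 0.107 with Cdkn1a and -0.047 with Pdk4. WT library 17, which is choroid plexus rich, had the lowest Fkbp5 of the 22, 46.2 CPM, and the second highest Sgk1. In WT library 1, Fkbp5 was 76.0 CPM and Pdk4 was the lowest of 22.

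Fkbp5 varied with Zbtb16 instead. WT libraries 15 and 17 were the lowest for Zbtb16 (42.8 and 46.8 CPM) and held 49.9 and 46.2 CPM of Fkbp5. The correlation was r = 0.725 (permutation p = 0.00011, adjusted p = 0.00247), but rho was 0.453 (permutation p = 0.0355, adjusted p = 0.126), so the rank correlation did not pass the threshold. It was r = 0.648 without WT library 17 and KO library 16, 0.729 in WT alone and 0.815 in KO alone. Without the choroid plexus rich libraries r was 0.587 and the call was lost (permutation test, adjusted p = 0.146), as it was in WT alone (adjusted p = 0.12). With KO library 8 put back, where both genes were lowest, it was 0.919. Of 15827 other genes, Fkbp5 ranked 4 for likeness to Zbtb16, and Zbtb16 ranked 12 for likeness to Fkbp5.

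Nr3c1 ran opposite to Fkbp5. KO library 16 held the most Nr3c1 (120.4 CPM) with 48.8 CPM of Fkbp5, and WT library 17 held 110.3 with 46.2, whereas KO library 12 held 85.7 with 83.5 and WT library 1 held 82.1 with 76.0. The correlation was r = -0.716 (permutation p = 0.00017, adjusted p = 0.00255) and rho = -0.743 (permutation p = 0.00018). It was -0.66 without KO library 16 and WT library 1, -0.619 in WT alone, -0.898 in KO alone and -0.658 without the choroid plexus rich libraries. The call was lost in WT alone (permutation test, adjusted p = 0.284) and without the choroid plexus rich libraries (adjusted p = 0.0699). The highest of the 22 libraries was 1.85 times the lowest for Fkbp5 and 1.47 times for Nr3c1. The relation of Nr3c1 to the library total missed the threshold (r = 0.525, permutation p = 0.0127; rho = 0.457, permutation p = 0.0346; adjusted p = 0.116 over 140 relations). That of Fkbp5 had the opposite sign and also missed it (r = -0.412, permutation p = 0.056, adjusted p = 0.28, with rho = -0.331, permutation p = 0.132). The part of depth in this pair was not tested.

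**Figure D3:**
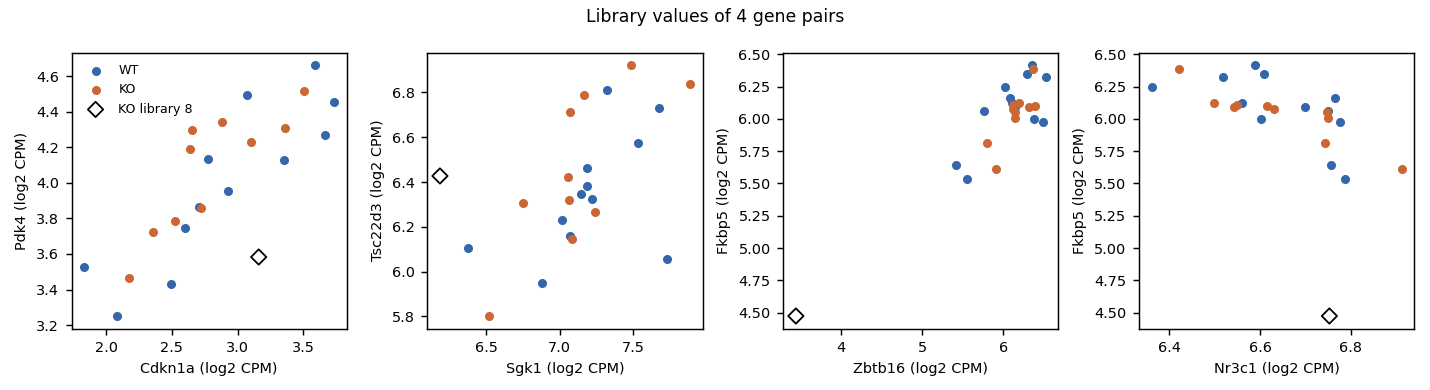
Log2 CPM of 4 gene pairs by library (blue WT, orange KO, diamond KO library 8). Cdkn1a and Pdk4 rise together in both genotypes (r = 0.843 over 22 libraries), Sgk1 and Tsc22d3 do so more loosely (0.603), Fkbp5 rises with Zbtb16 (0.725) and falls with Nr3c1 (-0.716).

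The other listed genes formed no called pair. Errfi1 was nearest to Sgk1 (r = 0.489, permutation p = 0.0212, adjusted p = 0.0907; rho = 0.481, permutation p = 0.0259). Hsd11b1 was nearest to Nr3c1 (r = 0.486, permutation p = 0.0218, adjusted p = 0.0907; rho = 0.425, permutation p = 0.0494). Nr3c2 was farthest from Tsc22d3 (r = -0.487, permutation p = 0.0222, adjusted p = 0.0907; rho = -0.405, permutation p = 0.0629). Between the receptors no correlation was detectable with 22 libraries (r = 0.16, permutation p = 0.476; rho = 0.265, permutation p = 0.233).

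**Figure D4:**
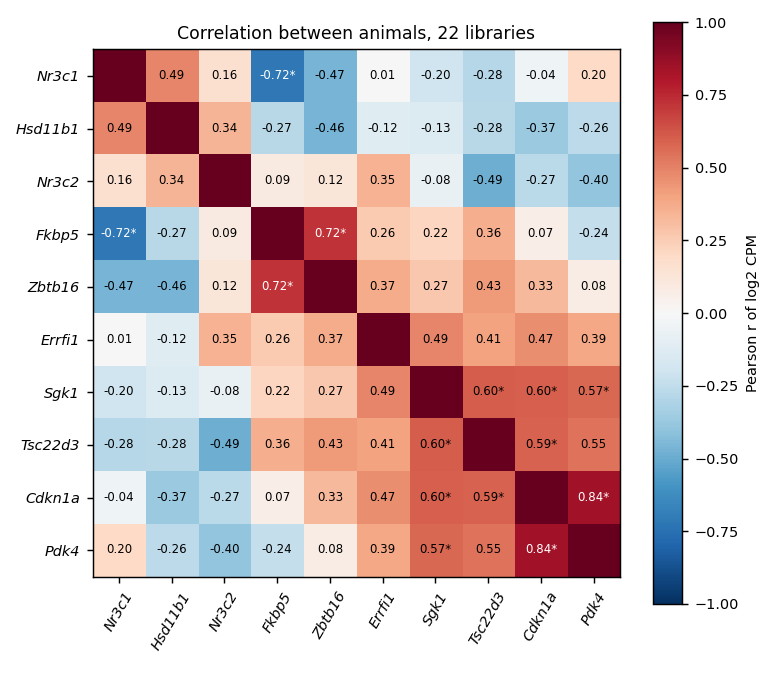
Pearson r of log2 CPM between the listed genes over 22 libraries, from -1 (blue) to 1 (red); an asterisk marks an adjusted p below 0.05 over 45 pairs. Sgk1, Tsc22d3, Cdkn1a and Pdk4 share a red block, Fkbp5 pairs with Zbtb16, and Nr3c1 is blue against Fkbp5.

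The number of called pairs depended on which libraries entered. It was 7 of 45 over the 22 libraries, 6 in KO alone, 1 in WT alone and 2 without the choroid plexus rich libraries, which leaves 17. It was 16 with KO library 8 put back and 14 after the oligodendrocyte score was regressed out, an alternative chosen after seeing the data. It fell to 3 without WT library 20, WT library 24, KO library 12 or KO library 18, and rose to 10 without WT library 1. Cdkn1a with Pdk4 was called in every one of these settings.

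To place the listed genes in the wider response, 30 other genes known to respond to glucocorticoids were followed, 29 of which passed the filter. Tsc22d3 had r of at least 0.5 with 17 of the 29, 58.6%, against 1.38% of all tested genes. Sgk1 reached it with 10 (34.5% against 2.98%), Cdkn1a with 9 (31.0% against 2.79%) and Pdk4 with 9 (31.0% against 4.17%). Fkbp5 reached it with 4 (13.8% against 2.87%), Errfi1 with 4 (13.8% against 1.35%) and Zbtb16 with 3 (10.3% against 2.02%). In the other direction, r was at most -0.5 with 4 of the 29 for Nr3c1 (13.8% against 2.24%) and with 2 for Hsd11b1 (6.9% against 0.67%). The mean log2 CPM of the list followed Tsc22d3 (r = 0.807, permutation p = 1e-05, the smallest possible; adjusted p = 0.0014 over 140 relations; rho = 0.746, permutation p = 6e-05; r = 0.816 without the farthest pair of libraries) and Sgk1 (r = 0.711, permutation p = 0.00029, adjusted p = 0.0203; rho = 0.692, permutation p = 0.00052; r = 0.595). These were the 2 relations of 140 for which r had an adjusted p below 0.05. The 140 are between the 10 genes and 12 list scores, the library total and the mitochondrial share. For these relations the p-values of rho were not adjusted.

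The genes nearest to each responsive gene were ranked over 15827 genes with no test. Leaving the listed genes aside, 5 of the 21 places 1 to 3 of the 7 responsive genes, 23.8%, went to genes of the list of other responsive genes, which holds 0.183% of the genes ranked. These were Klf15, Ppp1r3g, Nfkbia, Arrdc2 and Angptl4. The nearest to Tsc22d3 were Klf15 (r = 0.889), a transcription factor of amino acid and lipid metabolism, Plekhf1 (0.829) and Ppp1r3g (0.811), a glycogen-targeting phosphatase subunit. For Sgk1 they were Nfkbia (0.895), the inhibitor of NF-kappaB, Arrdc2 (0.822) and again Plekhf1 (0.798). For Cdkn1a after Pdk4, they were Plat (0.803), tissue plasminogen activator, and Angptl4 (0.795), an inhibitor of lipoprotein lipase. For Fkbp5 they were Spns2 (0.828), a sphingosine-1-phosphate transporter, Zhx3 (0.788) and Pglyrp1 (0.764).

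Zbtb16 was nearest to Ccdc93 (0.746), Afmid (0.744) and Chrm5 (0.735), and Errfi1 to Zfp189 (0.773), Fgf10 (0.766) and Dio2 (0.718), the enzyme that activates thyroid hormone. For Pdk4 after Cdkn1a, the nearest were 6720489N17Rik (0.804) and Bet1 (0.795). Fkbp5 and Tsc22d3 had some responsive genes in common: Hif3a had r = 0.722 with Fkbp5 and 0.748 with Tsc22d3, Mfsd2a 0.716 and 0.738, and Xdh 0.686 and 0.579. Klf15, Nfkbia and Txnip, with r of 0.662, 0.895 and 0.662 for Sgk1, had r of 0.2, 0.108 and -0.097 for Fkbp5.

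Immediate early genes, which neurons switch on within minutes of activity, were followed in the same way, and their score passed the threshold with none of the 10 genes. Zbtb16 had r of at most -0.5 with 8 of 12 (66.7%, against 1.99% of all tested genes), Fkbp5 with 7 (58.3% against 2.62%), Tsc22d3 with 7 (58.3% against 1.2%), and Cdkn1a and Errfi1 with 5 each (41.7%, against 4.24% and 1.24%). Sgk1 reached it with 3 (against 3.23%) and Pdk4 with 0 (against 5.41%). Nr3c1 had r of at least 0.5 with 7 of the 12 (58.3% against 4.9%) and Hsd11b1 with 3 (against 0.979%). Fos, for example, had r = -0.631 with Fkbp5, -0.664 with Zbtb16 and 0.505 with Nr3c1. The score of the list came closest to Zbtb16 (r = -0.642, permutation p = 0.00127; rho = -0.653, permutation p = 0.00149; adjusted p = 0.0518). Dusp1 belongs to both lists and was with the immediate early genes here (r = -0.611 with Fkbp5).

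**Figure D5:**
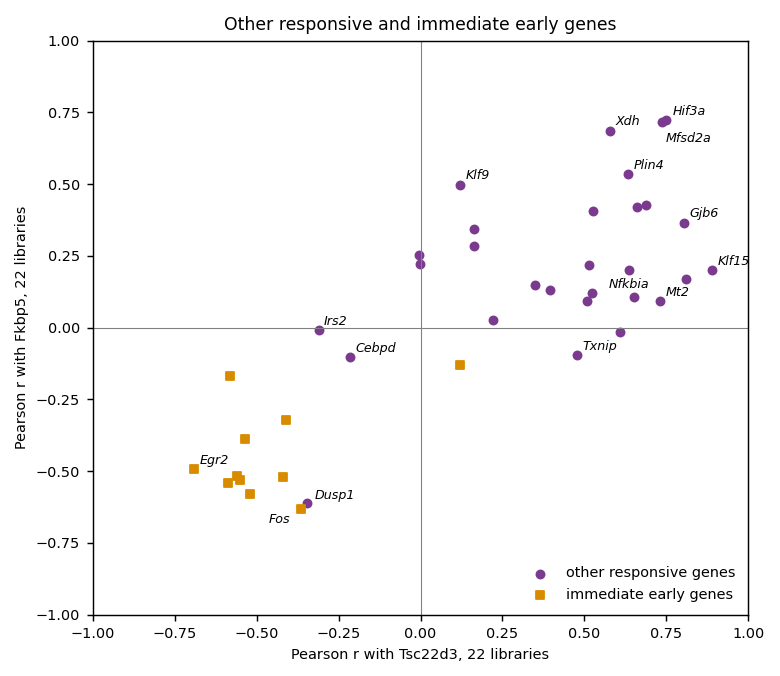
Pearson r with Tsc22d3 (x axis) and with Fkbp5 (y axis) over 22 libraries for 29 other responsive genes (purple circles) and the immediate early genes other than Dusp1, which is drawn with the responsive genes (orange squares). Hif3a, Mfsd2a and Xdh sit at upper right for both, Klf15 and Nfkbia are high for Tsc22d3 alone, and most immediate early genes sit at lower left.

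Nr3c2 stood in another context. It had r of at least 0.5 with 14.3% of all tested genes and at most -0.5 with 12.8%, and the genes nearest to it were Epha4 (0.96), Frrs1l (0.95) and Nbea (0.936), all expressed in neurons. Its relation to the dentate gyrus score missed the threshold (r = 0.651, permutation p = 0.00148; rho = 0.621, permutation p = 0.0026; r = 0.679 without the farthest pair of libraries; adjusted p = 0.0518). It had r of at most -0.5 with 6 of 10 oligodendrocyte genes and 5 of 10 astrocyte genes. The oligodendrocyte score (r = -0.513, permutation p = 0.0141, adjusted p = 0.116) and the astrocyte score (r = -0.549, permutation p = 0.0085, adjusted p = 0.092) missed the threshold too. Without the farthest pair of libraries these r were -0.37 and -0.295. Of the 29 other responsive genes, 10 had r of at most -0.5 with Nr3c2 and 3 had r of at least 0.5. No pooled r with choroid plexus genes is given, because the libraries fall into separate clusters on them. By rank, Nr3c2 had rho = -0.811 with the choroid plexus score (permutation p = 3e-05, not adjusted), and the part of the clusters in this value was not tested. In the choroid plexus rich libraries WT 14, WT 17, KO 2, KO 6 and KO 12 its level was 153, 187, 171, 168 and 159 CPM, each below the WT median of 202, while the KO median was 170. The part of cell composition in the Nr3c2 values was not tested.

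Other genes of the pathway were compared between KO and WT by counts, to be read beside the 5.74% of all tested genes with an unadjusted p below 0.05 in edgeR (4.11% without KO library 8). Of 29 other responsive genes tested, 0 were called, with 12 higher and 17 lower in KO and 1 at an unadjusted p below 0.05 (Sesn1, log2 fold change -0.16, SE 0.0584, edgeR adjusted p = 0.781). Next by p were Rasd1 (-0.24, SE 0.129) and Ddit4 (-0.18, SE 0.103). Of 14 chaperones and cofactors of the receptors, 0 were called and 1 had an unadjusted p below 0.05, the coactivator Ncoa3 (-0.10, SE 0.0406, edgeR adjusted p = 0.781). In this list 3 were higher and 11 lower in KO, and 2 and 12 without KO library 8. With limma voom 5 of the 14 chaperones and cofactors and 3 of the 29 other responsive genes had an unadjusted p below 0.05, 35.7% and 10.3%, against 17.5% of all tested genes. Of 6 tested genes of steroid supply, 0 were called and 0 had an unadjusted p below 0.05, and Srd5a1 was first by p (0.16, SE 0.117). DESeq2 called 0 in each of these lists as well.

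Of 5 tested genes of the hypothalamic and pituitary stress axis, 0 were called. Counts at an unadjusted p below 0.05 in edgeR are again to be read beside 5.74% of all tested genes, and 4.11% without KO library 8. Pomc (2.47, SE 0.738, edgeR adjusted p = 0.781) and Crh (0.53, SE 0.245, edgeR adjusted p = 0.781) had an unadjusted p below 0.05 with KO library 8 and not without it (0.56 and 0.24). Of 13 clock genes, 0 were called and 2 had an unadjusted p below 0.05, Nr1d2 (0.15, SE 0.0589) and Arntl (-0.19, SE 0.0831). Of 12 immediate early genes, 0 were called and 0 had an unadjusted p below 0.05, and Egr2 was first by p (-0.40, SE 0.216). In this list 10 of 12 were lower in KO with edgeR, 12 of 12 without KO library 8 and 6 of 12 with limma voom. Across the cell type and region lists, 0 genes were called, with unadjusted p below 0.05 for 0 of 10 endothelial, 1 of 10 astrocyte, 0 of 10 oligodendrocyte, 0 of 10 microglial, 0 of 6 choroid plexus, 1 of 1 hypothalamic, 2 of 8 dentate gyrus, 0 of 5 CA1, 1 of 8 CA2/CA3 and 0 of 10 mural and blood genes. Without KO library 8 these counts were 0 for astrocytes and for the hypothalamic gene and 4 of 8 for the dentate gyrus, and the others were the same. The 8 dentate gyrus genes were lower in KO in both fits, with a median log2 fold change of -0.35 and of -0.22 without KO library 8, where Trpc6 was first by p (-0.37, SE 0.0953, edgeR adjusted p = 0.963). limma voom, in all 23 libraries, gave 5 of 8, against 17.5% of all tested genes. Nr3c2 had r of at least 0.5 with 5 of these 8 genes, and their part in its KO and WT values was not tested. DESeq2 gave 6 of 6 for the choroid plexus genes, with a median log2 fold change of 2.47 against 0.27 in edgeR and 0.46 in limma voom.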

How the data were processed

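RNA from 23 hippocampus samples of female mice was measured by RNA sequencing. Per the labels' protocols, dissected tissue went into Trizol, RNA was column-purified and a stranded kit for mRNA gave the libraries. Per the submitters' processing notes, bcl2fastq, STAR and mm10 were used. The counting program, its use of strand and the annotation are not given in the sources used here. The authors deposited 1 table of estimated counts, in which 24.6% to 27.2% of a library's non-zero values have decimals. Reads that fit more than 1 gene may thus be divided, which makes near-identical or overlapping genes uncertain. Intervals cover the spread between libraries and limits on low counts cover counting error only.

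Columns were matched to samples by library name, with 0 unmatched, and libraries of the same genotype differed from each other by more than sampling noise (chi-square per degree of freedom at least 6.9). Counts were rounded and tested with edgeR 4.0.16 (filterByExpr by genotype, TMM, robust quasi-likelihood F test) in R 4.3.3 over 15828 genes, with Benjamini-Hochberg adjustment over these genes and a threshold of 0.05. Gene names and positions came from GENCODE M21 on GRCm38, matching 45143 of 45706 identifiers, and levels per kilobase used the union of exons. Correlations used log2 CPM (TMM, prior count 2) over 22 libraries with 100000 permutations (20000 where 1 library was left out) in numpy 2.4.6 under Python 3.11.15. List scores are means of log2 CPM. Genes of similar level are those within 0.5 of the gene's mean log2 CPM. Scripts were tested on simulated data. The receptor ratio was added after the data were seen.

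The 10 genes and the 16 other lists (other responsive genes, receptor cofactors, steroid supply, stress axis, clock, immediate early genes, and 10 lists of cell types and regions) were chosen with earlier results of these data known. Genes named besides the 10 are the called genes of a list or, where there are none, up to 3 with the smallest p, and the 3 genes with the highest r to each responsive gene. Others were named after their values were seen. A result that the rule would have named is not reported here. Alternatives were DESeq2 1.42.0, voom of limma 3.58.1 with quality weights, RLE scaling, other filters, choroid plexus or endothelium scores as covariates, other sets of libraries, and leaving out each library.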

Additional observations from a re-analysis of the deposited data

How the results depend on the processing

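No paired analysis was possible because the genotypes share no replicate number. The listed genes called between KO and WT were 0 in each of 8 alternatives and each of 23 fits without 1 library. Over all tested genes the number called was 2. It was 4 with DESeq2, 4 with limma voom, 1 when a mean of 50 counts was required, and 2 to 3 without 1 library. Some small differences changed sign, and none was called. Without 1 library, Nr3c1 ran from -0.0231 to 0.0205 on the log2 scale, Zbtb16 from -0.136 to 0.0311, Errfi1 from -0.0651 to 0.0124 and Pdk4 from -0.052 to 0.0798. Without the choroid plexus rich libraries and KO library 8, Errfi1 was 0.0458, Nr3c1 0.0495 and Pdk4 0.197, and Pdk4 was -0.00374 with the choroid plexus score as covariate. The number of correlated pairs, 7, became 16 with all 23 libraries, 2 without the choroid plexus rich libraries, 1 in WT alone, 14 with the oligodendrocyte score regressed out, and 3 to 10 without 1 library. It was within 1.5 times of 7 in the other 7 alternatives. The difference in the receptor ratio, -0.38, ran from -0.449 to -0.119 without 1 library and was -0.17 (permutation p = 0.179) without the choroid plexus rich libraries and KO library 8. The cause was not tested. With 22 libraries, correlations of moderate size can miss the threshold, and counting error was the largest share of the SD for Hsd11b1, 38.9%, and Errfi1, 33.2%.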

Other observations

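Clock genes were set beside the listed genes, over the same 22 libraries, as values with no test. Fkbp5 had r of at least 0.5 with 2 of 13 clock genes, 15.4% against 2.87% of all tested genes, namely the period genes Per2 (0.759) and Per3 (0.669), and Per2 had r = 0.669 with Zbtb16. Cdkn1a had r of at most -0.5 with 4 of 13, 30.8% against 4.24% of all tested genes: the transcription factor Dbp (-0.757), the repressor Nr1d1 (-0.711), Ciart (-0.629) and Cry2 (-0.592). Pdk4 had r of at most -0.5 with 3 of 13, 23.1% against 5.41%, which were Dbp (-0.516), Nr1d1 (-0.655) and Cry2 (-0.567). Nr3c1 had r of at least 0.5 with 1 of 13, Arntl (0.542), 7.69% against 4.9%, and of at most -0.5 with 2 of 13, Per2 (-0.608) and Per3 (-0.52), 15.4% against 2.24%. The labels do not give the time at which tissue was taken, and its part in these values was not tested.

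The receptor chaperones and cofactors were set beside the listed genes in the same way. Nr3c2 had r = 0.842 with the coactivator Ncoa1, 0.751 with the coactivator Ncoa2 and 0.824 with the corepressor Ncor1, where 14.3% of all tested genes had r of at least 0.5 with it. It had r of at most -0.5 with 3 of 14, the chaperones Fkbp4 (-0.672), Ptges3 (-0.525) and Bag1 (-0.523), 21.4% against 12.8% of all tested genes. Nr3c1 reached 0.5 with 2 of 14, Hdac2 (0.604) and the chaperone Hsp90aa1 (0.563), against 4.9% of all tested genes. Sgk1, Cdkn1a and Pdk4 reached it with 1 of 14 each, and Fkbp5, Tsc22d3, Zbtb16 and Errfi1 with 0.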
